A study of Homo sapiens with 2 samples.

Results

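The EGFR family comprises 4 receptor tyrosine kinases, EGFR, ERBB2, ERBB3 and ERBB4, and the EGF-like growth factors that bind them. The genes described here are these 4 receptors and 6 ligands, AREG, EREG, HBEGF, TGFA, BTC and EGF, taken by their gene names. Of the 10 genes, 8 had a transcript cluster of their own, meaning a probe group assigned to that gene and no other, and each of the 8 had 1 cluster, out of 67524 clusters and 22410 named genes on the array. AREG had none in the annotation used and was not analysed here, and the cluster of ERBB2 was shared with a microRNA gene, as described below.

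Signals were measured in OAW42, a cisplatin-sensitive human ovarian carcinoma line, and in OAW42-R, its resistant counterpart, which was derived from OAW42 by repeated exposure to rising cisplatin with recovery between exposures. Both lines were untreated when RNA was taken and shared a medium with fetal calf serum and added insulin, and whether OAW42-R is 1 clone is not given in the sources used here. For each line 1 array was available, and how many the authors hybridised is not stated in those sources. No value therefore has a replicate error, no difference could be tested, and the state of a culture cannot be told apart from the line. Differences are OAW42-R minus OAW42 in log2 signal, where 1 is 2-fold.

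Ligands of this family are made as membrane-bound precursors and are released by metalloproteases. Binding of a ligand lets receptors pair, and the pair phosphorylates its tails, which recruit adaptors of the RAS-ERK and PI3K-AKT pathways. EGFR binds EGF, TGF-alpha, amphiregulin, epiregulin, betacellulin and HB-EGF. ERBB4 binds neuregulins and some of the same ligands, ERBB3 binds neuregulins but has little kinase activity of its own, and ERBB2 has no known ligand and acts as a partner. The family is well known in epithelial tumours, including those of the ovary.

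The family did not move one way. EGFR had a lower signal in OAW42-R (1.56-fold), whereas ERBB4, ERBB3 and the ligands TGFA and EGF had higher ones (1.27, 1.21, 1.39 and 1.17-fold). HBEGF was within 0.09 between the lines, and EREG and BTC lay below the median of both arrays, where differences were not read. No member reached 2-fold in either direction.

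To show the upstream sequence of the members on which these results turn, the 250 bases before the start are printed for EGFR, ERBB4 and TGFA, which had the largest differences, and for EREG, the dimmest member. They are RefSeq sequences of GRCh38.p14, taken at the start farthest upstream where more than 1 was given (EGFR and TGFA each had 2), and 9 of the 10 genes had an entry. Capitals mark GGGCGG (the GC box, bound by SP1-type factors, on either strand, overlaps counted) and TATAAA (the TATA box, on either strand).
EGFR promoter, chr7:55018767-55019016, plus strand: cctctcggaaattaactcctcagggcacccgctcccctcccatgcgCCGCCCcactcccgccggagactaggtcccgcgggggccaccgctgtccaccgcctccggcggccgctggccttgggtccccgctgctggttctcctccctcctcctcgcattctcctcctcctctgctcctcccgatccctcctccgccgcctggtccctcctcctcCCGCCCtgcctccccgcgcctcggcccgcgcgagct
ERBB4 promoter, chr2:212538803-212539052, minus strand: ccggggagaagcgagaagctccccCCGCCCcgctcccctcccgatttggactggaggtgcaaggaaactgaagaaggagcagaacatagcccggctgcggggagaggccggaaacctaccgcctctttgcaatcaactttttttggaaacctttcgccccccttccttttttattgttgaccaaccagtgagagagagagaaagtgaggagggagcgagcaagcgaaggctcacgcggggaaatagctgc
TGFA promoter, chr2:70553827-70554076, minus strand: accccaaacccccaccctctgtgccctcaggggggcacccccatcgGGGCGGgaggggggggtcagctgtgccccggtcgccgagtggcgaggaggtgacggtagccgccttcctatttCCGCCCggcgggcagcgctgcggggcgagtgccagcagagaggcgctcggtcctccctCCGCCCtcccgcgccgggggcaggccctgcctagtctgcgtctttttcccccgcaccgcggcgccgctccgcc
EREG promoter, chr4:74364895-74365144, plus strand: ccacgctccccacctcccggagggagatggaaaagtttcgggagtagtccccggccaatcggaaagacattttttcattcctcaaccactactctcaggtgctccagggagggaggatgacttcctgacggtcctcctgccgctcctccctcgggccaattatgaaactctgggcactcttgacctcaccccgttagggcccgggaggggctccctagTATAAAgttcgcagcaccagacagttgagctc

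The EGFR window held 2 GC boxes and no TATA box, with 73.6% G and C. ERBB4 had 1 GC box at 57.2% G and C and TGFA had 3 at 75.6%, again with no TATA box. EREG had no GC box but had a TATA box that began 32 bases before its start, and AREG, its neighbour, had one at 29 bases. Among 35116 RefSeq promoter windows of this length 42.6% held the GC box and 10.7% the TATA box, and the median G and C content was 58%. These are matches of letters in a reference sequence and were not measured in either line.

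Of the receptors, EGFR stood at a log2 signal of 9.14 in OAW42-R against 9.78 in OAW42 (difference -0.64). Both levels lay far above the array medians (6.34 and 6.30). Among the 15946 genes above the signal floor, those whose brighter array was at or above the median of all clusters, 1.10% had a lower difference than EGFR and 2.83% had one at least as large in size. Among the 2698 of these genes with a mean signal within 0.5 of that of EGFR, 2.82% did.

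ERBB4 stood at 9.69 in OAW42-R against 9.35 in OAW42 (difference 0.34), and ERBB3 at 7.23 against 6.95 (difference 0.28). Both kinases were thus higher in the line with the lower EGFR signal. ERBB3, however, stood only 0.89 above the array median in OAW42-R and 0.65 above it in OAW42. Of all genes above the floor, 5.78% had a larger positive difference than ERBB4 and 8.05% a larger one than ERBB3. Setting EGFR against ERBB4 on the same arrays gave a relative shift of -0.98 (1.97-fold), and against ERBB3 one of -0.92 (1.89-fold). These relative shifts do not depend on where an array is centred, and they show unequal differences, not which of the genes departed.

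The array has no cluster for ERBB2 alone. TC17000480.hg.1 is assigned to ERBB2 and to MIR4728, a microRNA gene that lies inside the span of ERBB2 on chromosome 17. This shared cluster stood at 8.94 in OAW42-R against 8.79 in OAW42 (difference 0.15), and it was counted for neither gene. The mature products of MIR4728 are printed with the seed (bases 2 to 8) in capitals because their transcript is the one that the shared cluster joins to ERBB2. They are RefSeq sequences of GRCh38.p14.
hsa-miR-4728-5p, chr17:39726496-39726518, plus strand: uGGGAGGGgagaggcagcaagca
hsa-miR-4728-3p, chr17:39726537-39726561, plus strand: cAUGCUGAccucccuccugccccag

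Of the ligands, TGFA, which encodes TGF-alpha, had the largest difference. Its signal was 7.82 in OAW42-R against 7.34 in OAW42 (difference 0.48), and 2.99% of genes above the floor had a larger positive one. Among the 4809 genes of like signal 4.22% differed by at least as much in either direction. EGF, the founding ligand, had signals of 6.95 and 6.72, a difference of 0.23. HBEGF, which encodes heparin-binding EGF-like growth factor, had 6.90 and 6.81, a difference of 0.09 that lies inside the central range of all genes. EGF and HBEGF stood only 0.42 to 0.61 above the medians of their arrays.

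BTC, encoding betacellulin, stood at 5.10 in OAW42-R against 5.21 in OAW42. EREG, encoding epiregulin, had 4.22 and 4.35. Both lay below the floor on both arrays, at the 27.6 and 30.0 percentiles of all clusters for BTC and the 13.6 and 16.0 percentiles for EREG, and their differences of -0.11 and -0.13 lie at levels below the floor. TGFA thus had a relative shift of 0.39 against HBEGF and of 0.25 against EGF, and one of 1.12 (2.17-fold) against EGFR.

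**Figure D1:**
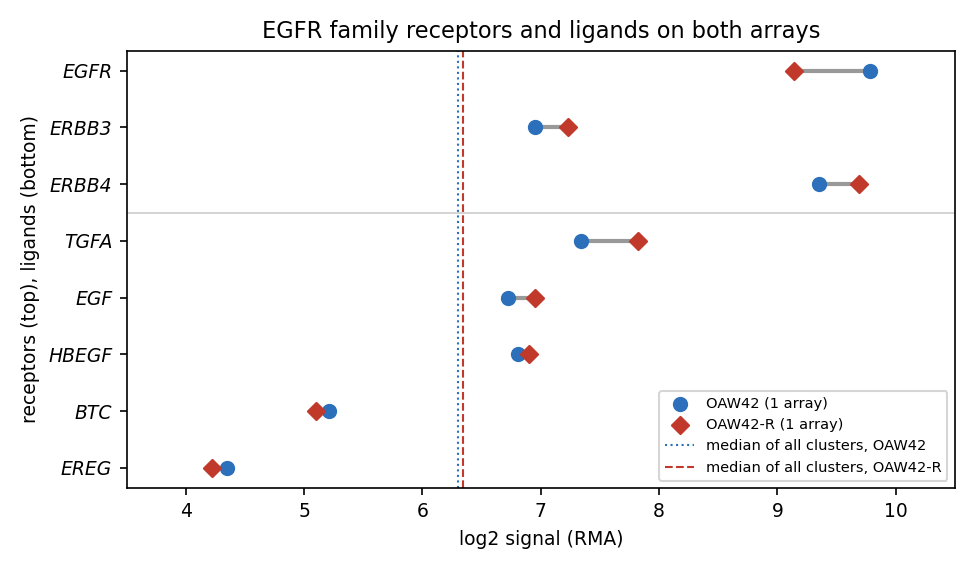
Log2 RMA signal (horizontal axis) of each of the 8 EGFR family genes with its own transcript cluster, in OAW42 (blue circles) and OAW42-R (red diamonds), 1 array each, with no error bars because there are no replicates. The vertical lines are the array medians, 6.30 and 6.34: EGFR is the only gene above them whose OAW42-R point lies to the left, and BTC and EREG lie below both.

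Set against all genes, the count of members was small. Of the 6 members above the floor, 5 were higher and 1, EGFR, was lower in OAW42-R, with a median difference of 0.26, whereas over all 15946 genes above the floor 46.6% were higher, 49.7% were lower and the median was 0.00. None of the 6 was at least 2-fold higher, against 0.539% of all genes, and none was at least 2-fold lower, against 0.339%. At 1.5-fold none was higher, against 2.02% of all genes, and EGFR was lower, against 1.32%. With so few members these counts describe the genes and do not set the family apart from other genes. The median rests on 6 genes, and 3 of them, EGFR, ERBB4 and TGFA, passed a stricter floor at the 75th percentile. TGFA passed it through OAW42-R alone, where it was higher, at the 75.5 percentile against 68.6 in OAW42.

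With no replicates, a single gene could be set only against other genes on the same arrays. The middle 95% of genes above the floor ran from -0.44 to 0.53 and the middle 50% from -0.10 to 0.11. EGFR lay outside the wider range. TGFA, ERBB4, ERBB3 and EGF lay inside it but outside the narrower one, and HBEGF lay inside both. Another yardstick was the disagreement between 2 clusters of the same gene, which could be taken for 292 genes with 2 clusters above the floor and not for the members, which have 1 each. The differences from the 2 clusters disagreed by a median of 0.04, with a 95th percentile of 0.33. As large as that of EGFR were 1.37% of these disagreements, and 3.42%, 4.79%, 8.22%, 11.3% and 34.6% were as large as the differences of TGFA, ERBB4, ERBB3, EGF and HBEGF. Clusters of a gene share the RNA and the array, so this spread leaves out the variation between cultures and between hybridisations. Copies of a gene on alternative haplotypes were dropped only where their values were identical. Some pairs may therefore cover nearly the same sequence, which would make the disagreement smaller.

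**Figure D2:**
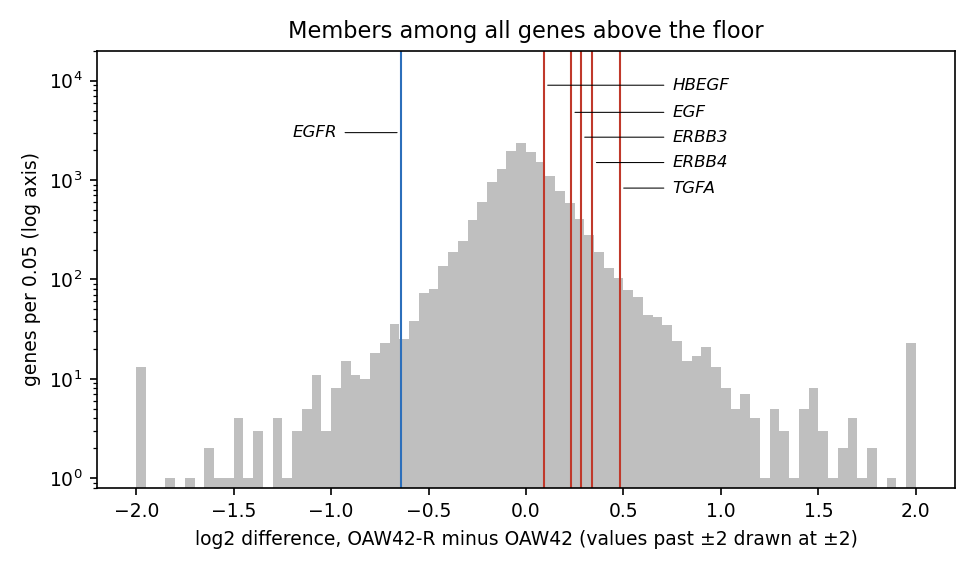
Number of genes (log axis) by log2 difference, OAW42-R minus OAW42, for the 15946 genes above the floor, in steps of 0.05, with genes past 2 in size drawn in the end bars. Vertical lines mark the 6 family members above the floor: EGFR at -0.64 lies in the lower tail, and the other 5, from 0.09 to 0.48, lie on the upper slope.

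Among receptor tyrosine kinases, EGFR and its relatives lay toward opposite ends. Besides the 3 ErbB receptors, 35 of 54 listed kinases were above the floor, with a median difference of -0.03, 13 higher and 20 lower. EGFR had rank 4 from the lowest of the 38. Lower than EGFR were EPHA7, an ephrin receptor (-3.44, with a signal of 5.29 in OAW42-R, below the array median), and the FGF receptors FGFR2 (-0.78) and FGFR1 (-0.70), and next came the IGF-1 receptor gene IGF1R (-0.49). ERBB4 had rank 2 and ERBB3 rank 3, shared with LMTK2, from the highest, after MST1R, the receptor of macrophage-stimulating protein (0.42). KIT had a larger positive difference (0.78) but lay below the floor on both arrays, at 6.25 and 5.47, and was not ranked. MET, the HGF receptor, differed by 0.02.

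Neuregulins and epigen, the other ligands of the family, were mostly dim. NRG1, a ligand of ERBB3 and ERBB4, stood at 7.14 in OAW42-R against 7.49 in OAW42 (difference -0.35). This was the brightest of its 3 clusters, and the others lay below the floor. NRG2 had 7.61 and 7.60. NRG3, NRG4 and EPGN lay below the floor, with signals between 3.53 and 5.09. By its brightest cluster no gene of these 5 reached 1.5-fold. The dimmer clusters of NRG1 differed by -0.65, past 1.5-fold, and by 0.23.

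Genes of ligand release had a median difference of -0.10, and none reached 1.5-fold. Of the 11 above the floor 8 were lower and 3 higher, against 49.7% lower over all genes. So small a count does not set the list apart. ADAM9, a membrane metalloprotease, differed by -0.38, CNIH1, related to the Drosophila cornichon protein that exports a TGF-alpha-like ligand, by -0.29, TIMP3, an inhibitor of such proteases, by -0.27, and ADAM10, the sheddase of EGF and betacellulin, by -0.19. ADAM17, which sheds TGF-alpha, amphiregulin and HB-EGF and was picked out after its value was seen, had signals of 9.24 and 9.37.

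The adaptors and relay kinases had a median difference of -0.01. Of 39 listed genes 30 had a cluster of their own, all above the floor, and 10 were higher, 16 lower and 4 equal. The docking protein gene GAB2, at 8.47 in OAW42-R against 9.06 in OAW42 (difference -0.59), was past 1.5-fold, and no other gene of the list was. MAP2K1, which encodes the ERK kinase MEK1, was higher by 0.31, and PIK3R1, the regulatory subunit of PI3K, and the kinase JAK1 each differed by -0.23.

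Among inhibitors and phosphatases of the receptors, ERRFI1 had the largest difference. ERRFI1, whose protein MIG6 binds and blocks the EGFR kinase domain and is induced by receptor signalling, stood at 9.49 in OAW42-R against 10.95 in OAW42 (difference -1.46, 2.75-fold lower). No other of the 20 genes of this list was past 1.5-fold, and the list had a median of -0.07, with 13 lower and 7 higher. SOCS3, a suppressor of cytokine signalling, differed by 0.56, the receptor phosphatase PTPRG by 0.51 and UBASH3B, a phosphatase that acts on tyrosine kinases, by -0.46. In endocytosis and sorting, where receptors are recycled or sent to lysosomes, the median of 21 genes was also -0.07. EPS8, an EGFR substrate that links receptors to actin, differed by -0.61 (1.53-fold lower), SH3KBP1, the CBL-binding protein CIN85, by -0.48, the early endosome GTPase RAB5A by 0.50 and the sorting nexin SNX1 by 0.26.

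Genes that respond to ERK signalling differed in both directions, with 12 of 24 higher, 11 lower and a median of 0.01. The immediate early genes EGR1 and FOS were higher in OAW42-R. EGR1 had signals of 11.22 and 9.46 (3.39-fold) and FOS 8.12 and 7.01 (2.16-fold). PHLDA1 differed by -0.77 and HMGA2 by -0.69, the latter from 6.40 in OAW42 to 5.71 in OAW42-R, below the array median. The next in size, named after their values were seen, were all higher. They were SPRY2 (0.52), ETV4 (0.49), JUN (0.47), ETV1 (0.45), SPRY4 (0.44), and DUSP5 and IER2 (0.33 each). Of the lower genes above the floor, DUSP6 (-0.21) came next after PHLDA1 and HMGA2. In bulk RNA a gene expressed by fewer cells and one with less RNA per cell cannot be told apart, and transcript signals say nothing of receptor protein or phosphorylation.

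**Figure D3:**
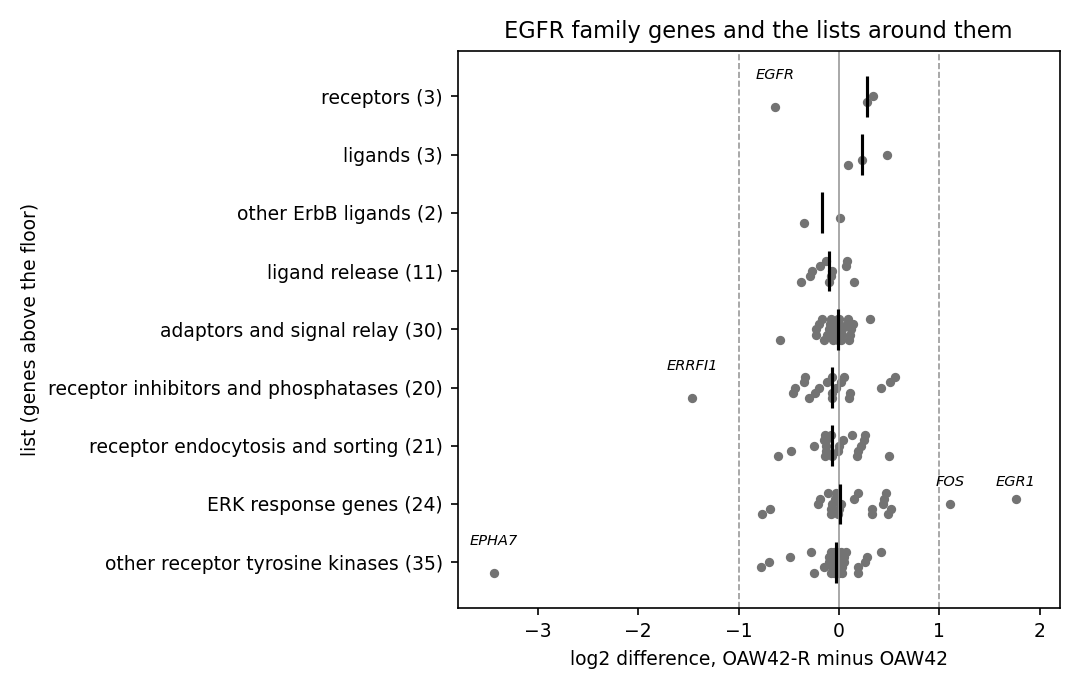
Log2 difference, OAW42-R minus OAW42 (horizontal axis), of each gene above the floor (points, spread vertically for legibility) among the family's receptors, its ligands and 7 lists of related genes, with the number of genes in parentheses, list medians as black bars and 2-fold as dashed lines. Medians lie between -0.17 (the other ErbB ligands) and 0.28 (the 3 receptors), and EPHA7, ERRFI1, FOS and EGR1 are the genes past 2-fold.

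The position of the members, which the choice of genes did not use, was then examined in RefSeq gene order. Over all genes above the floor 49.7% were lower in OAW42-R. Of the 20 nearest such genes around EGFR on chromosome 7, 15 were lower (median difference -0.16). This came from 1 side, where all 10 genes after EGFR, from EGFR-AS1 to SUMF2, were lower, by 0.10 to 0.52 in size and a median of -0.25, whereas 5 of the 10 before it were lower (median -0.02). The split by side was made after the values were seen. CCT6A, a chaperonin subunit gene, had the largest difference on that side, -0.52, and LANCL2, the nearest coding gene above the floor on that side, had signals of 8.09 and 8.44. EGFR-AS1, antisense to EGFR, had 6.34 and 6.48, close to the array medians. EGFR itself differed by more than any of the 10 genes after it. On the side before EGFR, DDC was higher by 0.62, the only neighbour of EGFR past 1.5-fold, and the adjacent LINC01446 by 0.43.

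EREG, AREG and BTC are neighbours on chromosome 4, together with EPGN, and share the same 20 surrounding genes. Of these 15 were lower and 5 higher, with a median of -0.17, against 49.7% lower over all genes. NUP54, a nuclear pore gene, differed most on the lower side (-0.54). The genes around ERBB3 on chromosome 12 had a median of 0.11, with 13 of 20 higher, and those around EGF one of 0.08, with 14 of 20 higher. Over all genes above the floor 46.6% were higher. Medians around ERBB4, TGFA and HBEGF were 0.02, -0.01 and 0.03. Of all these neighbours FN1, the fibronectin gene near ERBB4, alone was past 2-fold, at 6.46 in OAW42-R against 8.97 in OAW42 (difference -2.51).

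**Figure D4:**
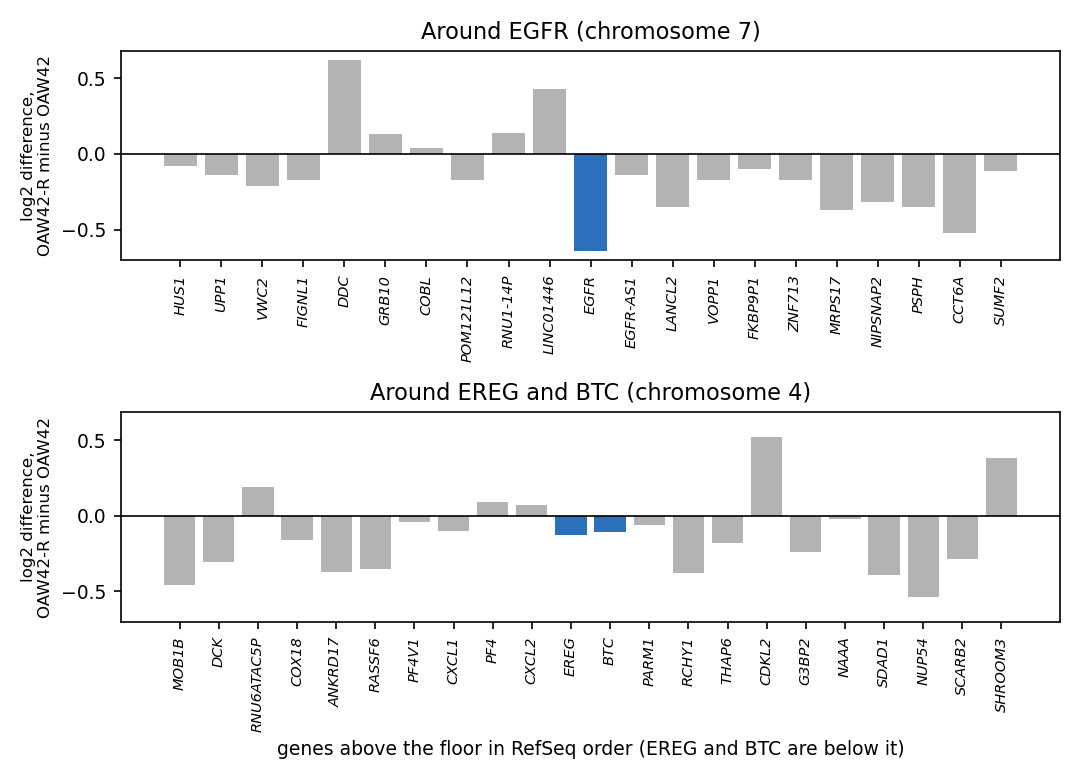
Log2 difference, OAW42-R minus OAW42 (vertical axis), of the 10 genes above the floor on each side of EGFR (top) and of the neighbouring EREG and BTC (bottom), in RefSeq order with equal spacing, members in blue. All 10 genes to the right of EGFR lie below 0, between -0.52 and -0.10, and 15 of the 20 genes around EREG and BTC lie below 0. Over all genes above the floor 49.7% lie below 0.

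The labelled cell type was checked against marker genes. All 13 ovarian carcinoma and epithelial markers were above the floor in both lines, with signals from 6.74 to 13.1 and a median difference of 0.07, and EPCAM was higher by 0.67 and SLPI by 0.43. Of all 22410 named genes 15946 passed the floor, so passing it does not by itself mark a cell type. Of the markers of other cells with a cluster, 3 of 4 leukocyte, 4 of 5 endothelial and 3 of 5 fibroblast genes passed the floor, with differences between -0.09 and 0.07. The brightest of each were CD68, a lysosomal protein gene of macrophages (10.47 and 10.56), CLDN5 (8.06 in both) and COL1A1 (7.83 and 7.91). These were brighter than WT1 (6.75 and 6.83), MUC16 (6.89 and 6.74) and WFDC2 (6.91 and 6.96) of the ovarian list. CD3E (6.32 and 6.40) and CD14 (6.43 and 6.36) of leukocytes passed it close to the array medians, and VWF (6.77 and 6.82), CDH5 (6.73 and 6.70) and TIE1 (7.06 and 7.14) of endothelium and COL1A2 (6.72 in both) and PDGFRB (6.73 and 6.76) of fibroblasts lay higher. PTPRC (4.21 and 4.25), PECAM1 (4.92 and 4.78), DCN (4.05 and 3.97) and LUM (3.72 and 3.52) were below the floor. The part of other cells in the differences of EGFR, ERBB4 or TGFA was not tested.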

How the data were processed

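Total RNA of each line was labelled by the authors as biotinylated single-stranded cDNA and hybridised to Affymetrix human transcriptome arrays, of which 1 per line was available here. The authors normalised with RMA over the whole set of samples, and deposited a log2 signal for every transcript cluster, with 2 decimals. RMA equalises the arrays and compresses large folds near background. Its version, the annotation release and the build are not given in the sources used here.

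Clusters were named from the platform annotation: 23780 had 1 symbol, 1541 several (used for no gene) and 42203 none. Symbols were updated with RefSeq GRCh38.p14, by Entrez identifier for 21497, symbol for 1974 and synonym for 305, and 4 were kept. A gene with several clusters was represented by the brightest. Counts were made at 2-fold, with 1.5-fold beside it, and no test was possible. Text names all members, the 4 genes of a list that differed most, and neighbours past 2-fold. Exceptions are stated, or are marker genes, KIT, EPHA4, ADAM17, family ligands, MET, MST1R and flanking genes, which were named after their values were seen. The members and lists were chosen with earlier results of these data known, and the comparison of 2 clusters of a gene was added after the data were seen.

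Alternatives were 3 rescalings of the arrays, other floors and thresholds, other ways to represent a gene, and low values raised to the floor. The steps recovered differences planted in simulated data, all larger than those of the members. This checks the computation only and says nothing of the error of the measured values. Python 3.11.15, numpy 2.4.6, pandas 2.3.3, statsmodels 0.14.6 and matplotlib 3.10.9 were used. Precision is limited by the number of arrays.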

Additional observations from a re-analysis of the deposited data

How the results depend on the processing

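Leaving out a replicate was not possible, since each line has 1 array. No paired analysis was possible because neither line has replicates. Under centring, quantile normalisation and loess the members kept their directions: EGFR ranged from -0.68 to -0.64, ERBB4 from 0.30 to 0.34, ERBB3 from 0.24 to 0.28, TGFA from 0.44 to 0.48, EGF from 0.19 to 0.23 and HBEGF from 0.05 to 0.09. Centring and quantile normalisation moved the median of all genes to -0.04, so values within 0.04 of 0, list medians included, have no direction. Of the alternative values 256 stayed within 0.1 on the log2 scale or, for counts, within 1.5 times, and 16 did not. Part of the 256 could not have changed. Each member has 1 cluster, so other ways to represent a gene left it as it was. Centring moved every difference by the same 0.04, and a list with no gene past 2-fold has none past 4-fold. Raising low values to the 50th percentile put both EREG and BTC at 0.04, since both were then at the floor. With clusters averaged per gene, or with the cluster of largest difference, NRG1 fell below the floor. The median of neuregulins and epigen was then the value of NRG2 alone, 0.01. With no floor, and the brightest cluster of each gene, it was 0.02.

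Thresholds moved counts by construction. At 1.5-fold, 1 of 6 family members, 1 of 30 adaptor or relay genes and 1 of 20 inhibitors were lower in OAW42-R. So were 1 of 21 endocytosis genes, 2 of 24 ERK response genes and 3 of 35 other receptor tyrosine kinases. Over all genes 322 (2.02%) were higher and 210 (1.32%) lower. At 4-fold 0 inhibitors were lower, 0 ERK response genes were higher, and 1 other receptor tyrosine kinase, EPHA7, was lower. Over all 15946 genes above the floor 22 were higher and 12 lower.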

Other observations

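Some further values stand outside the comparisons above. KIT, the receptor of stem cell factor, was below the floor at 6.25 in OAW42-R against 5.47 in OAW42 (difference 0.78), and EPHA4 was below it at 5.93 against 6.24. Both were picked out after their values were seen. The dimmer clusters of NRG1, both below the floor, differed by -0.65 and 0.23, against -0.35 for the brightest cluster of that gene. Its 3 clusters thus did not share a direction. TGFA-IT1, a transcript within an intron of TGFA, stood at 5.58 in OAW42-R against 5.76 in OAW42, also below the floor.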
